A study of Canis lupus familiaris with 8 samples.

Results

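Kinesins are motor proteins that use ATP to move along microtubules or to shorten their ends. Some of them act in mitosis, where they separate the spindle poles, hold chromosomes in place and build the midzone at which the cell divides, and their transcripts are known to be most abundant in dividing cells. Others act between divisions, on cargo or on microtubule ends at the cell cortex. The 8 kinesin genes described here were KIF2C, KIF11, KIF14, KIF18A, KIF20A, KIF22 and KIF23, which act in mitosis or cytokinesis, and KIF21A, which does not. They were taken by their Ensembl gene IDs, which the study's own list of regulated genes pairs with these symbols, and they are 8 of 32704 genes in the count table. All 8 passed the filter on low counts, as did 19835 genes in all.

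RNA was sequenced from MDCK I cells, an epithelial line from dog kidney, in 4 groups of 2 libraries. Neg-siRNA (300 mOsm) was the isosmotic control, transfected with a control siRNA against Slc22a6, a gene stated not to be expressed in these cells. Neg-siRNA (500 mOsm) received the same siRNA and then medium with raffinose, a sugar that added 200 mOsm, for 24 h. Nfat5-1-siRNA (500 mOsm) and Nfat5-2-siRNA (500 mOsm) had the same raffinose treatment after transfection with either of 2 siRNA constructs against Nfat5, a transcription factor known for its role in the response to hyperosmolality, and every siRNA was used at 100 nM. Replicate 1 of each group was cell passage 15 and replicate 2 passage 17 of a single line, so the spread within a group is that between these 2 cultures. There was no Nfat5-siRNA group at 300 mOsm and no untransfected group. The transcript of Nfat5 itself was not analysed here, and neither were epithelial or other cell type markers, since 0 of the 9 and 0 of the 12 listed were paired with a symbol.

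The study describes its list as genes raised by hyperosmolality and lowered by both Nfat5-siRNA constructs, selected by test in these same libraries. Of the 8 kinesins only KIF18A had those signs in the counts, while the other 7 had the opposite sign in the hyperosmotic step or with the constructs. By which rule these 7 entered the list is not given in the sources used here. Since the list rests on these comparisons, the differences in all 3 are given as a description of the members, without p-values. The differences between the constructs and between the passages are not among the comparisons named for the list, and these were tested. They use the same libraries, so the choice may still bear on them. Levels are CPM, which divide a gene's count by the total of the library after TMM scaling, and the totals lay between 34564103 and 46043788 counts. Differences are log2 fold changes from edgeR with their standard errors (SE).

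The 8 genes fell into 3 patterns. KIF2C, KIF11, KIF14, KIF20A, KIF22 and KIF23 were lower in hyperosmotic than in isosmotic cells and lower again with either Nfat5-siRNA. KIF18A was 1.99-fold higher in hyperosmotic cells and with Nfat5-siRNA lay below its isosmotic level. KIF21A was 4.66-fold higher in hyperosmotic cells and higher still with Nfat5-siRNA. The summed level of the 8 genes was 764 and 842 CPM in the isosmotic libraries, 468 and 421 CPM in the hyperosmotic ones, 206 and 189.7 CPM with Nfat5-1-siRNA, and 158 and 163 CPM with Nfat5-2-siRNA.

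**Figure D1:**
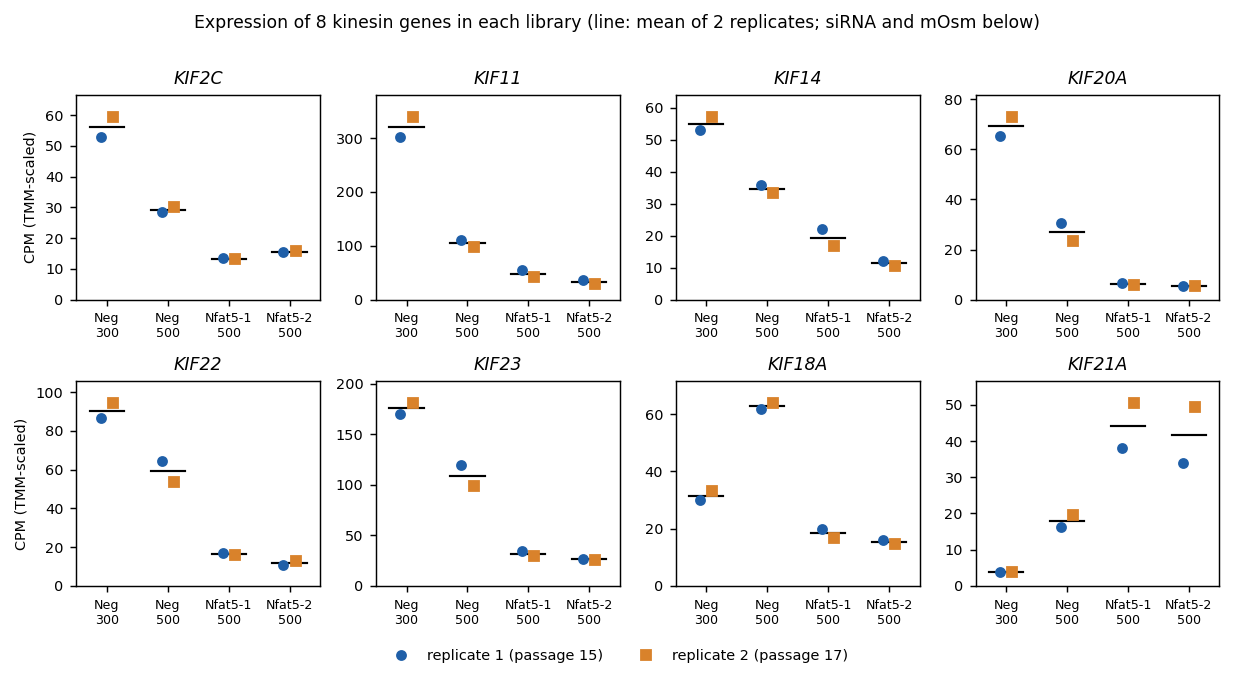
Level of each kinesin gene in CPM (linear axis from 0) in each of the 8 libraries, with siRNA and osmolality in mOsm below; circles are replicate 1, squares replicate 2, and lines the mean of the 2. KIF18A peaks in Neg-siRNA (500 mOsm) at 62.0 and 63.9 CPM, KIF21A is highest with Nfat5-siRNA, and the other 6 are highest at 300 mOsm.

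KIF11 is the motor that slides antiparallel microtubules apart and keeps the spindle bipolar. Its level was 301 and 339.6 CPM in the isosmotic libraries, 111 and 98.4 CPM in the hyperosmotic ones, 54.6 and 41.5 CPM with Nfat5-1-siRNA, and 37.1 and 28.4 CPM with Nfat5-2-siRNA. No 2 groups overlapped. The hyperosmotic difference was −1.61 (SE 0.179), the largest fall among the 8, and the differences with Nfat5-1-siRNA and Nfat5-2-siRNA from the hyperosmotic control were −1.12 (SE 0.177) and −1.68 (SE 0.180). KIF11 was thus the most abundant of the 8 by CPM in the isosmotic cells and held 10.2% of that level with Nfat5-2-siRNA. The gene lies at chr28:6982438-7036057 on the plus strand of CanFam3.1, in 22 exon blocks.

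KIF2C shortens microtubules at centromeres and helps to correct wrong attachments of chromosomes. It measured 53.0 and 59.5 CPM at 300 mOsm, 28.6 and 30.0 CPM at 500 mOsm, 13.5 and 13.2 CPM with Nfat5-1-siRNA, and 15.6 and 15.7 CPM with Nfat5-2-siRNA. The hyperosmotic difference was −0.94 (SE 0.150), and those with the constructs were −1.13 (SE 0.152) and −0.91 (SE 0.152). KIF2C was the only one of the 8 with a higher mean level with Nfat5-2-siRNA than with Nfat5-1-siRNA. It lies at chr15:15558057-15579217, minus strand, in 21 exon blocks.

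KIF22 binds chromosome arms and pushes them towards the spindle equator. Its levels were 86.5 and 94.3 CPM at 300 mOsm and 64.2 and 53.8 CPM at 500 mOsm, a difference of −0.62 (SE 0.155). With Nfat5-1-siRNA they were 17.2 and 16.0 CPM and with Nfat5-2-siRNA 10.8 and 12.6 CPM, which are −1.83 (SE 0.160) and −2.33 (SE 0.164) relative to the hyperosmotic control. The step with Nfat5-siRNA was thus the larger one for KIF22, while for KIF11 the hyperosmotic step lay between those with the constructs. The gene lies at chr6:17853228-17866110, plus strand, in 14 exon blocks.

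KIF23, KIF20A and KIF14 act late in division, at the central spindle and the midbody. KIF23 is the motor subunit of centralspindlin, and it measured 170.4 and 181 CPM at 300 mOsm, 119 and 98.7 CPM at 500 mOsm, 34.1 and 29.2 CPM with Nfat5-1-siRNA, and 26.5 and 26.0 CPM with Nfat5-2-siRNA. Its differences were −0.69 (SE 0.149) in the hyperosmotic comparison and −1.79 (SE 0.154) and −2.05 (SE 0.156) with the constructs. KIF23 lies at chr30:33302709-33337672, plus strand, in 24 exon blocks. Like KIF22, it had a smaller hyperosmotic difference than either siRNA difference.

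KIF20A carries the chromosomal passenger complex to the central spindle. It measured 65.4 and 73.0 CPM at 300 mOsm, 30.7 and 23.5 CPM at 500 mOsm, 6.68 and 5.79 CPM with Nfat5-1-siRNA, and 5.47 and 5.26 CPM with Nfat5-2-siRNA. Its differences were −1.35 (SE 0.173), −2.12 (SE 0.182) and −2.34 (SE 0.184), so that 9.02% and 7.76% of the isosmotic level was left with the constructs, the lowest shares among the 8. KIF20A lies at chr11:25826713-25833985, plus strand, in 16 exon blocks, and 363 of its 2901 exon bases (12.5%) also belong to a gene annotated on the other strand. Reads were counted without regard to strand, so reads from those bases cannot be told apart.

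KIF14 works with the cytokinesis machinery at the midbody. Its levels were 53.0 and 57.2 CPM at 300 mOsm, 35.8 and 33.5 CPM at 500 mOsm, 22.0 and 16.7 CPM with Nfat5-1-siRNA, and 12.2 and 10.6 CPM with Nfat5-2-siRNA. The differences were −0.67 (SE 0.170), −0.84 (SE 0.171) and −1.60 (SE 0.176). KIF14 had the smallest difference of the 8 with Nfat5-1-siRNA, and its libraries with the 2 constructs did not overlap. It lies at chr7:2548763-2602372, plus strand, in 30 exon blocks.

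KIF18A moves to the plus ends of kinetochore microtubules and dampens the oscillations of chromosomes, so it too is a motor of mitosis. Its levels were 30.1 and 33.1 CPM at 300 mOsm, 62.0 and 63.9 CPM at 500 mOsm, 19.9 and 16.8 CPM with Nfat5-1-siRNA, and 16.2 and 14.7 CPM with Nfat5-2-siRNA. The hyperosmotic libraries stood above all others and the siRNA libraries below all others, and Nfat5-2-siRNA lay just below Nfat5-1-siRNA. The hyperosmotic difference was 1.00 (SE 0.156), and the differences with the constructs were −1.78 (SE 0.160) and −2.03 (SE 0.161). The gene lies at chr21:48497699-48575011, minus strand, in 17 exon blocks.

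KIF21A is found at the cell cortex, where it slows the growth of microtubules. It had 172 and 128 reads in the isosmotic libraries, which are 3.87 and 3.79 CPM, the lowest level of the 8. It measured 16.2 and 19.6 CPM in the hyperosmotic libraries, 38.0 and 50.5 CPM with Nfat5-1-siRNA, and 34.0 and 49.5 CPM with Nfat5-2-siRNA. The hyperosmotic difference was 2.22 (SE 0.224), and those with the constructs were 1.31 (SE 0.208) and 1.22 (SE 0.208). Passages 15 and 17 lay furthest apart for this gene with the constructs, yet both stood above both hyperosmotic libraries. It lies at chr27:14258672-14328277, plus strand, in 38 exon blocks.

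By edgeR with the Benjamini-Yekutieli adjustment over all 19835 genes, 6 of the 8 passed an adjusted p of 0.05 in the hyperosmotic comparison, 2 higher and 4 lower, where 20.6% of all genes tested passed (11.3% higher and 9.23% lower). KIF14 and KIF22 were those that did not, and all 8 passed with passage as a block, where 33.1% of all genes did. With Nfat5-1-siRNA all 8 passed, 1 higher and 7 lower, beside 7.93% of all genes (3.4% higher and 4.53% lower, and 21.5% in all with the block), and with Nfat5-2-siRNA likewise, beside 12% (4.67% higher and 7.38% lower, and 26.1% in all with the block). Since the symbols come from a list that rests on these comparisons, the counts are a description. With 1 library left out at a time, the counts ranged from 4 to 6, from 4 to 8 and from 6 to 8 in these comparisons, beside 12.1% to 21.4%, 0.812% to 8.27% and 4.9% to 11.6% of all genes. Some omissions lost the hyperosmotic calls of KIF18A and KIF23 (log2 differences of KIF23 from −0.89 to −0.61). With Nfat5-1-siRNA they lost those of KIF2C, KIF11, KIF14 and KIF21A, most often KIF14 (−1.05 to −0.66). With Nfat5-2-siRNA those of KIF2C and KIF21A were lost, KIF2C more often (−0.91 to −0.78). The differences of KIF21A ranged from 1.09 to 1.51 and from 0.93 to 1.47 with the constructs. The median log2 difference of the 6 genes without KIF18A and KIF21A was −0.81, −1.46 and −1.87, beside 0.00, −0.07 and −0.03 over all genes tested.

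**Figure D2:**
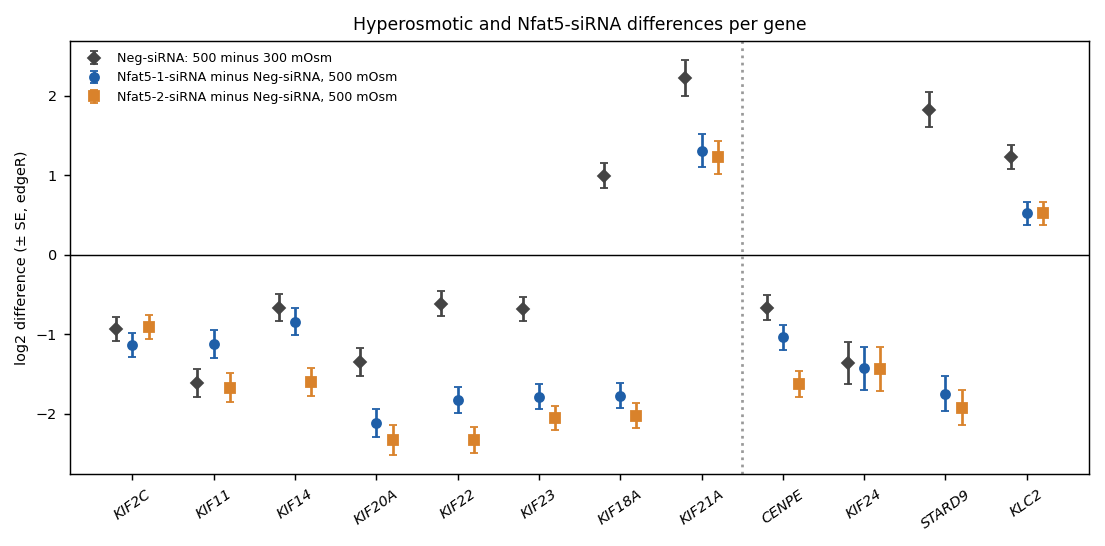
Log2 differences with their SE (edgeR) for the 8 kinesins and, right of the dotted line, 3 further kinesins and a kinesin light chain, with diamonds for 500 against 300 mOsm and circles and squares for the Nfat5-siRNA constructs against the hyperosmotic control. KIF18A and STARD9 have a positive diamond with negative circles and squares, KIF21A and KLC2 have positive values throughout, and the rest are negative throughout.

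The level with Nfat5-siRNA was then set beside that of the isosmotic control, which asks where each transcript ended after both steps. This difference is the sum of the steps, so it too is a description of listed genes. It ran from −3.47 for KIF20A to 3.53 for KIF21A with Nfat5-1-siRNA and from −3.69 to 3.44, for the same genes, with Nfat5-2-siRNA. KIF18A, whose steps have opposite signs, stood below its isosmotic level by −0.78 (SE 0.157) with Nfat5-1-siRNA and by −1.03 (SE 0.158) with Nfat5-2-siRNA. With 1 library left out at a time these values for KIF18A ranged from −0.91 to −0.67 and from −1.10 to −0.96, and all 4 of its siRNA libraries lay below both isosmotic ones.

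KIF18A and KIF21A were also set against the mean log2 level of the other 6 kinesins in the same library. This ratio holds the change of the 6 as well as that of the gene, so a fall of the 6 raises it. The genes' own differences in the 3 comparisons were 1.00, −1.78 and −2.03 for KIF18A and 2.22, 1.31 and 1.22 for KIF21A. KIF18A lay at −1.68 in both isosmotic libraries, at 0.18 and 0.41 in the hyperosmotic ones, at −0.01 and −0.02 with Nfat5-1-siRNA, and at 0.12 and 0.05 with Nfat5-2-siRNA. Its ratio to the 6 was thus 1.98 higher in hyperosmotic than in isosmotic cells, on the log2 scale, and 0.31 and 0.21 lower with the constructs than in the hyperosmotic control. The siRNA values of KIF18A depend on the hyperosmotic control: without Neg-siRNA (500 mOsm) replicate 2 they were −0.19 and −0.10, without its replicate 1 −0.42 and −0.33, and with KIF11 alone as the reference −0.65 and −0.34. The hyperosmotic value of KIF18A was 1.86 to 2.09 with 1 library left out and 2.61 against KIF11 alone, so under each of these settings its ratio moved further in the hyperosmotic step than with either construct. KIF21A lay at −4.63 and −4.79, at −1.75 and −1.30, at 0.93 and 1.56, and at 1.18 and 1.80 in the same order. Its ratio was higher by 3.18 in the hyperosmotic step and by 2.77 and 3.02 with the constructs. The groups compared did not overlap for either gene, but groups of 2 often do not, and the share over all genes was not computed. For KIF18A the value of 0.12 with Nfat5-2-siRNA lay nearer to the 0.18 of the hyperosmotic control than that control's own 0.18 and 0.41 to each other. With 2 libraries against 2 no permutation test could pass a threshold of 0.05, so none is given.

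**Figure D3:**
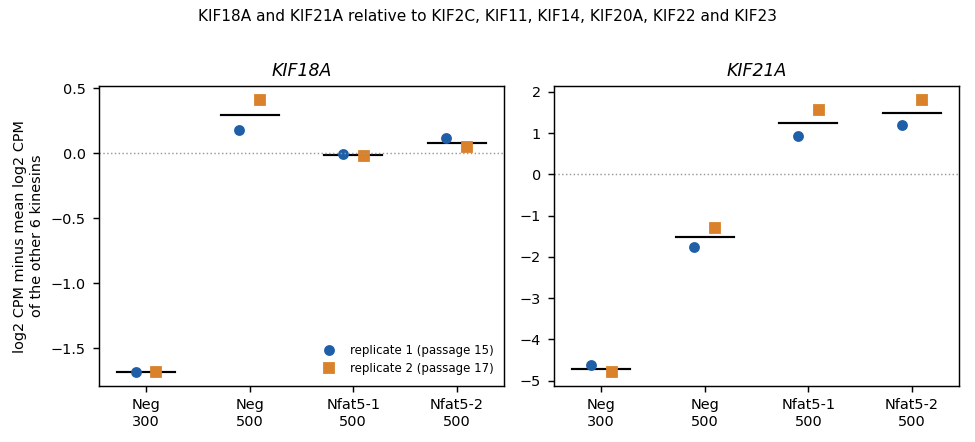
Log2 CPM of KIF18A and of KIF21A minus the mean log2 CPM of KIF2C, KIF11, KIF14, KIF20A, KIF22 and KIF23 in each library (vertical axes differ), with circles for replicate 1, squares for replicate 2 and a line for their mean. KIF18A moves from −1.68 at 300 mOsm to values between −0.02 and 0.41 in all libraries at 500 mOsm, whereas KIF21A climbs from −4.79 and −4.63 to between 0.93 and 1.80 with Nfat5-siRNA.

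Divided by exon length, the levels of different kinesins can be set side by side, here in CPM per kilobase. In the isosmotic cells KIF11 (52.06) and KIF23 (50.8) led and did not differ beyond their replicates, followed by KIF22 (27.7), KIF2C (25.8) and KIF20A (23.9), whose neighbours overlapped. KIF18A (8.90), KIF14 (7.45) and KIF21A (0.618) came below and were separate from each other. In the hyperosmotic control KIF23 (31.6) led alone, KIF22 (18.1), KIF18A (17.7) and KIF11 (17.0) overlapped as neighbours, and KIF2C (13.4), KIF20A (9.34), KIF14 (4.68) and KIF21A (2.88) followed without overlap. KIF18A thus moved from the sixth to the third place.

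With Nfat5-1-siRNA, the order in CPM per kilobase was KIF23 (9.15), KIF11 (7.81), KIF21A (7.14) and KIF2C (6.13), which overlapped as neighbours, then KIF18A (5.18) and KIF22 (5.08), which overlapped, and KIF14 (2.61) and KIF20A (2.15), which overlapped too. With Nfat5-2-siRNA it was KIF23 (7.60), then KIF2C (7.17), KIF21A (6.73) and KIF11 (5.32), which overlapped as neighbours, and KIF18A (4.35), KIF22 (3.58), KIF20A (1.85) and KIF14 (1.54), which did not. KIF21A, the last of the 8 in both Neg-siRNA groups, was thus among the first 4 with either construct. How far each gene model covers UTRs was not checked, so levels per kilobase are only roughly comparable between the 8 genes. The exon lengths of KIF2C, KIF14, KIF18A and KIF20A are multiples of 3, which does not show whether a model holds UTRs.

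The difference between the constructs, Nfat5-2-siRNA minus Nfat5-1-siRNA, is not among the comparisons named for the list, though it uses the same siRNA libraries. In edgeR without the block, 0 of the 8 passed the adjusted p, beside 0.0403% of all genes (8 of 19835), while 2957 genes, KIF11, KIF14 and KIF22 among them, had an unadjusted p under 0.05. DESeq2 without the block called 0 of the 8 as well, beside 0.948% of all genes. KIF14 was lower with Nfat5-2-siRNA by 1.70-fold (log2 difference −0.76, 95% interval −1.14 to −0.39, unadjusted p = 0.000708, adjusted p = 0.633 by edgeR). KIF11 differed by −0.55 (interval −0.94 to −0.17) and KIF22 by −0.50 (interval −0.85 to −0.16), both with an adjusted p of 1 in edgeR. The intervals of the other 5 held 0, from 0.23 (−0.10 to 0.55) for KIF2C to −0.27 (−0.59 to 0.06) for KIF23, with KIF18A at −0.25 (−0.59 to 0.09), KIF20A at −0.22 (−0.61 to 0.18) and KIF21A at −0.09 (−0.52 to 0.35). These intervals still hold differences of up to 0.61 on the log2 scale, so equal action of the constructs on these genes was not shown.

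With passage as a block, 2 of the 8 passed, beside 4.94% of all genes. KIF14 fell by 0.76 (SE 0.154, adjusted p = 0.00172) and KIF11 by 0.55 (SE 0.134, adjusted p = 0.0202) by edgeR, each lower with Nfat5-2-siRNA in both passages. KIF22 did not pass (adjusted p = 0.135 by edgeR). DESeq2 with the block called KIF14 only (adjusted p = 0.0134), beside 3.07% of all genes. The call of KIF14 with the block was lost without Nfat5-1-siRNA replicate 1, without Nfat5-2-siRNA replicate 1 and without Nfat5-2-siRNA replicate 2, with log2 differences from −0.92 to −0.58 over all 8 omissions. That of KIF11 was lost in 5 of 8 omissions (−0.69 to −0.41), and neither gene passed when libraries were scaled by their totals alone.

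**Figure D4:**
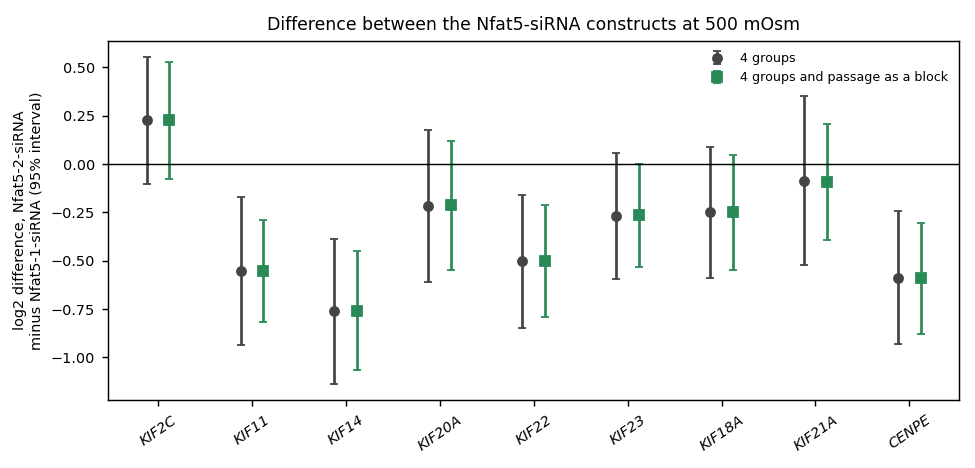
Log2 difference between the constructs, Nfat5-2-siRNA minus Nfat5-1-siRNA at 500 mOsm, with 95% intervals from edgeR, for the 8 kinesins and CENPE; circles are the fit on the 4 groups and squares that with passage as a block. KIF14, KIF11, KIF22 and CENPE lie below 0 with their whole interval in both fits, and KIF2C is the only one above 0.

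The passages were compared over all 4 groups in the fit with the block. None of the 8 kinesins passed the adjusted p by edgeR, beside 3.29% of all genes. KIF21A was nearest, higher by 0.33 on the log2 scale in passage 17 (SE 0.112, unadjusted p = 0.00414, adjusted p = 0.537 by edgeR). It was higher in passage 17 in 3 of 4 groups, by 1.21-fold in the hyperosmotic control and by 1.33-fold and 1.46-fold with the constructs, and stood at 0.979 of passage 15 in the isosmotic cells. KIF11 differed by −0.19 (SE 0.0939, unadjusted p = 0.0450, adjusted p = 1 by edgeR), and only these 2 had an unadjusted p under 0.05.

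Across the 8 libraries the 6 kinesins varied together, with Pearson's r of log2 CPM from 0.901 to 0.996 over 15 pairs (median 0.966). KIF18A had r from 0.599 to 0.795 with the 6, and KIF21A from −0.978 to −0.896. These are descriptions over 4 groups of 2, in which points share their group, library and passage. The genes most like each pattern were sought among 712 genes that had a symbol from the study's list and a mean of at least 10 CPM. For KIF11 they were ALDH5A1 (r = 0.998), GRB7 (0.997) and NCAPH (0.995), for KIF18A RDH11 (0.995), ERO1A (0.995) and KREMEN1 (0.989), and for KIF21A ISG20L2 (0.996), IGHMBP2 (0.994) and SMG5 (0.994).

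NCAPH is a subunit of condensin, which compacts chromosomes for mitosis. It measured 115 and 124 CPM at 300 mOsm, 56.9 and 48.5 CPM at 500 mOsm, 28.5 and 20.6 CPM with Nfat5-1-siRNA, and 22.3 and 19.4 CPM with Nfat5-2-siRNA. ERO1A, an oxidase of the endoplasmic reticulum that helps to form disulfide bonds, measured 583 and 651, 1315 and 1250.4, 354 and 274, and 326 and 277 CPM in the same order. ERO1A had the profile of KIF18A at a level many times higher. SMG5, a factor of nonsense-mediated mRNA decay, measured 75.1 and 71.0, 145 and 153, 242 and 253, and 189 and 248 CPM.

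Of 13 mitotic kinesins and 29 others in a list of the family, only CENPE and KIF24 could be paired with a gene ID beside the 8, since symbols came from the study's list alone, so the rest of the family was not analysed here. CENPE carries chromosomes along microtubules at the kinetochore. It measured 74.5 and 82.0 CPM at 300 mOsm, 53.4 and 45.2 CPM at 500 mOsm, 22.9 and 25.1 CPM with Nfat5-1-siRNA, and 17.3 and 14.7 CPM with Nfat5-2-siRNA. Its steps were −0.67, −1.04 and −1.63 on the log2 scale, near those of KIF14. CENPE differed between the constructs by −0.59 (SE 0.160, adjusted p = 1 by edgeR), and with the block its adjusted p was 0.0231. With the block and 1 library left out it passed in 2 of 8 cases, those without a Neg-siRNA (300 mOsm) library, with differences of CENPE from −0.72 to −0.47.

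KIF24, which acts at centrioles and restrains the growth of cilia, measured 22.9 and 17.7 CPM, 9.01 and 6.78 CPM, 3.44 and 2.40 CPM, and 3.43 and 2.39 CPM in the 4 groups. Its steps were −1.37, −1.43 and −1.44. STARD9, a kinesin of the centrosome that was not in the list and was added after its values were seen, measured 8.21 and 11.3 CPM, 33.7 and 35.4 CPM, 10.0 and 10.5 CPM, and 7.28 and 10.9 CPM. Its steps of 1.82, −1.75 and −1.93 had the signs of KIF18A, and relative to the isosmotic control it stood at 0.07 (SE 0.220) and −0.10 (SE 0.222). KLC2, a light chain that links a transport kinesin to its cargo, was the 1 paired gene of 6 light chain genes. It measured 24.3 and 21.6, 53.7 and 54.1, 74.9 and 79.4, and 72.8 and 81.9 CPM, and its steps were 1.23 (SE 0.146), 0.52 (SE 0.143) and 0.52 (SE 0.143). KLC2 is from the same list, so these too are a description, and the steps with the constructs were smaller than those of KIF21A.

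Of 12 proteins known to work with the mitotic kinesins, 7 were paired: ECT2, PRC1, CDCA8, PLK1, TPX2, NUSAP1 and HMMR. All come from the same list, so their calls are a description too. In the hyperosmotic comparison 6 of the 7 passed and were lower, and ECT2 did not pass. The median of the 7 was −1.14, and 9.23% of all genes were called lower. HMMR, which acts in spindle assembly, had the lowest value at −1.72, and ECT2, which activates RhoA for the cleavage furrow, the highest at −0.64. With Nfat5-1-siRNA all 7 were lower and 6 of them passed (median −1.21, beside 4.53% of all genes called lower). The same held with Nfat5-2-siRNA (median −1.66, beside 7.38%). CDCA8 did not pass with either construct, at −0.65 and −0.67. With passage as a block all 7 passed and were lower in each of the 3, where 15.7%, 11.9% and 15.3% of all genes were called lower. Between the constructs 0 of 7 passed by edgeR, beside 0.0403% of all genes without the block and 4.94% with it, and ECT2, PRC1 and TPX2 had an unadjusted p under 0.05 without the block.

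HMMR measured 53.8 and 69.0 CPM at 300 mOsm, 18.9 and 18.4 CPM at 500 mOsm, 4.32 and 4.17 CPM with Nfat5-1-siRNA, and 5.66 and 3.74 CPM with Nfat5-2-siRNA. ECT2 measured 195 and 214, 139.9 and 123, 52.6 and 40.0, and 38.0 and 29.6 CPM in the same order. Both genes were thus lower in hyperosmotic than in isosmotic cells and lower again with either construct, in every library.

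Of 9 proliferation markers, 2 were paired, TOP2A, the topoisomerase of dividing cells, and CCNA2, cyclin A of S phase and G2. TOP2A measured 488 and 459.9 CPM at 300 mOsm, 189 and 131 CPM at 500 mOsm, 62.2 and 41.0 CPM with Nfat5-1-siRNA, and 42.4 and 33.2 CPM with Nfat5-2-siRNA. CCNA2 measured 65.5 and 74.5, 29.8 and 24.9, 5.07 and 2.40, and 5.47 and 3.72 CPM, and 183 of its 1299 exon bases (14.1%) also belong to a gene on the other strand, from which reads cannot be told apart. Both moved with the 6 kinesins and against KIF18A in the hyperosmotic step. In bulk RNA, fewer cells in mitosis and less transcript per mitotic cell cannot be told apart, and the part of the proliferating share in these results was not tested. TOP2A also fell by 0.39 in passage 17 (SE 0.0927, adjusted p = 0.0199 by edgeR with the block). None of the 8 kinesins passed between passages, beside 3.29% of all genes, so this does not set them apart from TOP2A.

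Among the partners of KIF21A at the cortex, 1 of 8 was paired, KANK3, of the KANK family of cortical proteins. It measured 1.66 and 2.04 CPM at 300 mOsm, 25.0 and 29.3 CPM at 500 mOsm, 1.46 and 1.34 CPM with Nfat5-1-siRNA, and 1.48 and 1.75 CPM with Nfat5-2-siRNA. Its steps were 3.88, −4.27 and −4.07, so KANK3 and KIF21A had the same sign in the hyperosmotic step and opposite signs with Nfat5-siRNA. Of 15 subunits of dynein and dynactin, the motor that moves the other way along microtubules, 1 was paired, DYNLRB1, with steps of 0.62, −0.63 and −0.86.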

How the data were processed

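Per the labels and the study's methods, polyA RNA of MDCK I cells was made into NEBNext Ultra II libraries, and the paired-end reads were mapped with HISAT2 2.0.5 to CanFam3.1. The authors deposited raw counts of reads per gene, made with featureCounts 1.5.1 on Ensembl 92 exons with the strand option 0 and no option to count pairs as fragments, so mates may have been counted separately and intervals cover no such dependence. Exon length and coordinates are of the same table, and 0 columns of library values were left unused. All 8 members lie on the chromosome that RefSeq gives their symbol, though on another dog assembly.

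The test was that of edgeR 4.0.16 (R 4.3.3) on the genes whose counts summed to 5 or more (TMM, quasi-likelihood test on 4 groups, two-sided, Benjamini-Yekutieli adjustment over 19835 genes, called under 0.05). SE was computed from the F statistic. Log2 CPM used a prior count of 2. DESeq2 1.42.0, Python 3.11.15 and matplotlib 3.10.9 were also used, and the fits were tested on simulated data. Replicate 1 is passage 15 and replicate 2 passage 17 in each group per the labels, which is the pairing behind the block; same-numbered libraries deviated together, their deviations correlating at 0.123 to 0.465 between groups. The common dispersion was 0.0320, and 0.0168 with the block.

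The members and gene lists were chosen with earlier results of these data known. Named were the members, further paired kinesins that passed a test, the extremes of each list and the 3 genes most like KIF11, KIF18A and KIF21A. Of the study's list, only symbols and gene IDs were used (860 of 989 genes had a symbol).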

Additional observations from a re-analysis of the deposited data

How the results depend on the processing

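The alternatives were DESeq2's size factors, scaling by library totals alone, no filter, filterByExpr, DESeq2 in place of edgeR, Benjamini-Hochberg adjusted p-values, passage as a block, only the libraries compared, and each library left out. Scaling by totals alone, the combinations with the block and the omission of libraries from the ratios of KIF18A and KIF21A were added after the data were seen. With totals alone the median log2 difference of all genes moved from 0.00 to −0.10 in the hyperosmotic comparison, and in those of the constructs it went −0.07 to 0.10 (Nfat5-1-siRNA) and −0.03 to 0.25 (Nfat5-2-siRNA), while the genes called higher and lower went from 2246 and 1831 to 1858 and 2346, from 674 and 898 to 1313 and 578, and from 926 and 1464 to 1971 and 742. The signs of the 8 kinesins in these 3 comparisons held under every alternative. As the symbols come from a list that rests on these comparisons, signs and calls in them are a description under every alternative too.

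With 1 library left out, 4 to 6 members passed in the hyperosmotic comparison, where KIF18A was lost without Neg-siRNA (300 mOsm) replicate 1, and KIF23 without either of that group's libraries, Neg-siRNA (500 mOsm) replicate 2 or either Nfat5-1-siRNA library. With Nfat5-1-siRNA fewest members passed without Neg-siRNA (500 mOsm) replicate 2 or Nfat5-1-siRNA replicate 2. KIF11, KIF14 and KIF21A were lost there and without Neg-siRNA (500 mOsm) replicate 1. KIF14 was also lost without Nfat5-1-siRNA replicate 1 or either Neg-siRNA (300 mOsm) library. KIF2C was lost without Neg-siRNA (500 mOsm) replicate 2 or either Nfat5-1-siRNA library. With Nfat5-2-siRNA KIF21A was lost without Neg-siRNA (500 mOsm) replicate 1 or Nfat5-2-siRNA replicate 2. KIF2C was lost there without either Neg-siRNA (500 mOsm) library and without either Nfat5-2-siRNA library. A lone library was assumed to vary like the other groups.

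Between the constructs 0 members passed without the block, 2 with the replicate block, 1 in DESeq2 with it, 2 with the block and DESeq2's size factors (4.81% of all genes), and 0 to 2 with the block and 1 library left out (1.81% to 5.77%). KIF21A changed sign between the constructs, to 0.0083 with totals alone, 0.0063 with totals alone and the block, and 0.13 and 0.16 without Nfat5-1-siRNA replicate 2 or Nfat5-2-siRNA replicate 1 (range −0.38 to 0.16 with 1 library left out), and 0.048 with the block and without the latter (range −0.25 to 0.048). The cause was not tested. All 8 members, KIF14 and KIF22 included, passed in the hyperosmotic comparison with the block, with DESeq2 (24.5% of all genes), with no filter (22.9%), with Benjamini-Hochberg adjusted p-values (35.5%) and with totals alone (21.2%), and 5 did with only the 4 libraries compared (19.1%). With Nfat5-1-siRNA 7 passed, KIF14 being lost, with filterByExpr (8.39% of all genes), totals alone (9.53%) or only the libraries compared (7.9%), and with Nfat5-2-siRNA 7, KIF2C being lost, with totals alone (13.7%) or only the libraries compared (8.43%). The block changed no other call of a member in these comparisons. Calls in the comparisons behind the list remain a description of listed genes. KIF21A had at least 128 reads in every library.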
